A study of Rattus norvegicus with 6 samples.

Results

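The genes described here encode the pores of cardiac potassium and pacemaker channels. They are the inward rectifiers Kcnj2 and Kcnj11, the transient outward channels Kcnd2 and Kcnd3, the delayed rectifiers Kcnq1, Kcnh2 and Kcna5, and the pacemaker channels Hcn2 and Hcn4. These 9 genes were taken by name from 16575 genes that could be named on the array, and 14 of 45572 probes measure them. Where several probes measure a gene, its brightest probe on average stands for it. No sodium channel gene is among the 9, and the sodium channel subunits are given further below as a separate list. Neonatal rat ventricular cardiomyocytes (NRVCs), pooled from the hearts of 8 to 10 Sprague-Dawley rats aged 1 to 2 days, were cultured without C3a (control, n = 3 arrays) or with recombinant C3a at 0.5 µg/ml for 12 h (C3a, n = 3 arrays). The labels name a serum-free culture medium, whereas the study's methods name starvation in low serum before C3a was added. C3a is the fragment released when complement C3 is cleaved, and the study asked which genes of cardiomyocytes respond to it. RNA of each sample was labelled with Cy3 and hybridised to its own 1-colour array. The labels do not say whether arrays of a group came from separate cell preparations, so p-values measure the spread between these samples, which may be technical.

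Channels of this group set the resting potential of the ventricular myocyte, shape its action potential and drive spontaneous firing. Inward rectifiers hold the membrane near the potassium equilibrium potential, transient outward channels carry the early repolarisation that is prominent in rodent ventricle, and delayed rectifiers end the action potential. Pacemaker channels open on hyperpolarisation and carry the inward current behind spontaneous beating in nodal cells and in immature ventricular myocytes. Many of these pores work together with partner subunits, which alter their surface level and their gating.

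All arrays lay on 1 slide, controls in one row of positions and C3a arrays in the other, so slide row and treatment cannot be told apart. Control replicate 1 was the noisiest array. Its local background had a median intensity of 47 (23 or 24 elsewhere), and 38.6% of its probes were well above background (53.7% to 57.3% elsewhere). Of the cardiomyocyte markers, 12 of 12 on the array were well above background on all 6 arrays. So were 7 of 10 fibroblast, 6 of 7 endothelial, 5 of 7 smooth muscle and pericyte, 2 of 8 macrophage, 2 of 9 neuronal and glial and 2 of 3 erythroid markers, so the cultures also held RNA of other cells. Among 8 markers of the sinoatrial node and conduction system, 6 were well above background on all arrays, Tbx3 and Tbx18 among them. Of the other markers, Isl1 was so on 0 arrays and Shox2 on 2 of 3 arrays of each group. In such mixed cultures, fewer cells of a type and less RNA per cell cannot be told apart.

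Of the 9 genes, 5 were well above background on all 6 arrays (Kcnj11, Kcnq1, Kcnd3, Kcnh2 and Hcn4), 3 on all C3a arrays but on 2 of 3 control arrays (Kcnj2, Kcnd2 and Hcn2), and Kcna5 on none. The control array that missed these 3 genes was replicate 1 in each case. They passed the filter, which asks for all 3 arrays of one condition, through the C3a arrays alone. At an adjusted p under 0.05 from limma, 0 of the 8 genes with a compared probe were called, as were 0% of all 23438 probes. At an unadjusted p under 0.05 from limma, Kcnj2 was higher and Kcnd2 was lower, against 5.82% of all probes (3.34% higher and 2.48% lower). The methods' equal-variance test across all probes, at the same unadjusted threshold, gave Kcnd2 and Kcnj11 but not Kcnj2. In that test 752 of the 23438 probes were higher and 356 were lower. For 3 of the 8 genes the groups did not overlap, against 12.5% of all probes. C3a lay above all controls for Kcnj2 and Kcnj11, as for 8.04% of all probes, and below them for Kcnd2, as for 4.46%. With 3 against 3 arrays, a two-sided exact permutation test cannot go below p = 0.1, the value for each of these 3 genes. Values below are log2 signals, with the 75th percentile of each array set to 0. A difference is the C3a mean minus the control mean on that scale. The dimmest probe that control replicate 1 measured stood at -2.28, and its readings of Kcnj2 (-3.06) and Kcnd2 (-3.12) lay under that floor. For Kcnj2 and Kcnd2 the absence of overlap therefore includes an unmeasured control value, which the shares of all probes do not take into account.

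**Figure D1:**
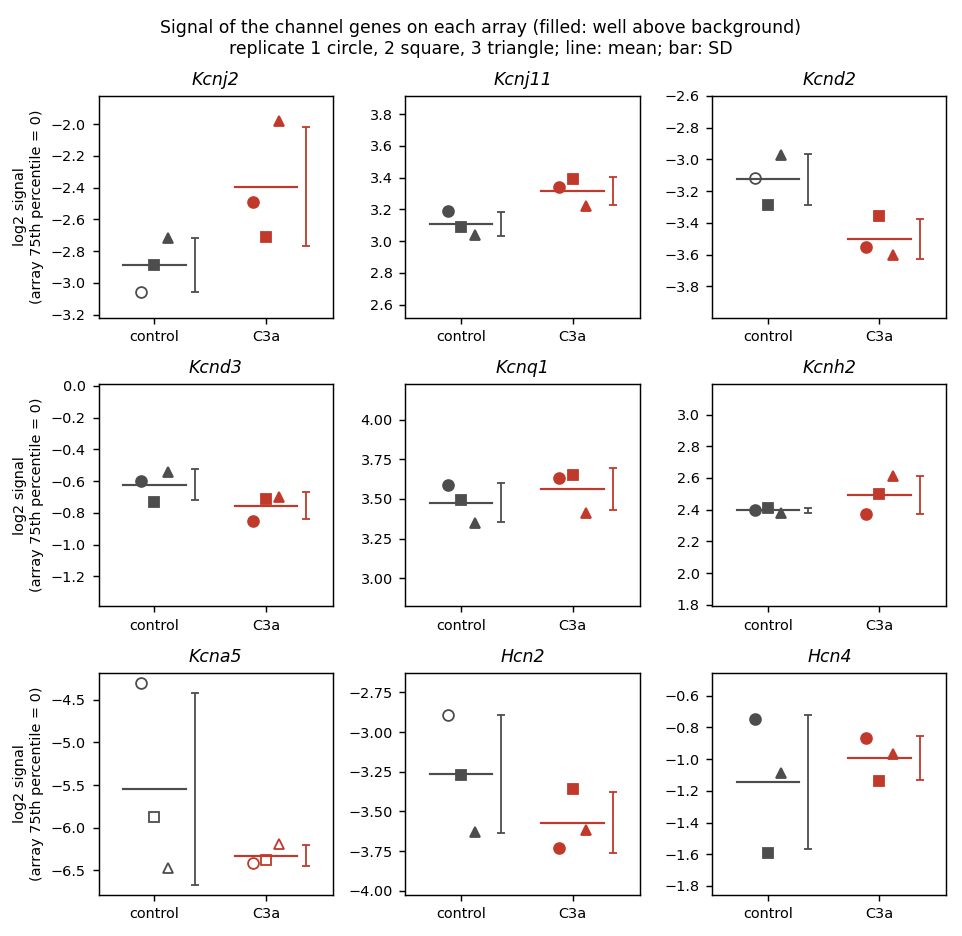
Log2 signal of each gene's probe on the 3 control and 3 C3a arrays, with each array's 75th percentile at 0. Filled points are well above background and open points are not, lines are means and bars are SD (n = 3). The C3a arrays lie above all controls for Kcnj2 and Kcnj11 and below them for Kcnd2, and all 6 points of Kcna5 are open.

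Among the inward rectifiers, Kcnj2 encodes the principal pore of the current that stabilises the resting potential. Its log2 signal was -3.06, -2.89 and -2.72 on control replicates 1 to 3 and -2.49, -2.71 and -1.98 on C3a replicates 1 to 3. The C3a arrays were above every control, but C3a replicate 2 exceeded control replicate 3 only marginally, and C3a replicate 3 stood highest. The value of control replicate 1 lay under that array's floor of -2.28, as would -2.49 and -2.71 of C3a replicates 1 and 2. Its order against those C3a values is therefore not settled. The difference was 0.49 (standard error 0.20, 95% interval 0.029 to 0.96), or 1.41-fold, with an unadjusted p of 0.0401 and an adjusted p of 0.743 from limma. Without C3a replicate 3 it was 0.29, and without control replicate 1, which did not measure the probe above background, it was 0.41 (unadjusted p from limma 0.0982 and 0.114). The unadjusted p from limma also passed 0.05 without control replicate 2 or C3a replicate 1 (0.0838 and 0.0633). All 3 pairs of arrays with the same replicate number gave a higher value with C3a, as they did for 25.2% of all probes.

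Kcnj11 encodes the pore of the ATP-sensitive potassium channel, which links membrane potential to the energy state of the cell. Its brighter probe read 3.19, 3.09 and 3.04 on the control arrays and 3.34, 3.39 and 3.22 on the C3a arrays. All C3a values were above all control values, and the distance between the nearest of them was small. The difference was 0.21 (standard error 0.098, 95% interval -0.020 to 0.44), or 1.16-fold, with an adjusted p of 0.743 from limma. A dimmer probe for the same transcript gave the opposite sign. It read -0.60, -0.35 and -1.03 on the control arrays and -1.05, -0.68 and -1.43 on the C3a arrays, a difference of -0.40 (standard error 0.24, adjusted p = 0.743 from limma). Its groups overlapped, but each C3a array was below the control of the same number, by 0.45, 0.33 and 0.40. All 3 pairs were lower for 13.7% of all probes. With the replicate number as a block, the unadjusted p from limma was 0.00526 and the adjusted p was 0.221. This fit of the probe was chosen after seeing the data. Under the block, 13.6% of all probes had an unadjusted p under 0.05. The gap between the brighter and the dimmer probe was wider with C3a by 0.61, with no overlap between the groups (exact permutation test, two-sided, p = 0.1, the smallest possible). The same gap also widened for the partner subunits Kcnip2 and Abcc8, given below. It was examined after its values were seen, and its share over other genes with several probes was not computed. No direction is therefore given for Kcnj11, whose kept probes averaged -0.092.

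Among the partner subunits described below, Kcnip2 and Abcc8 had a further probe well above background on all arrays, and in both the dimmer probe was below 0 and the brighter above it. Kcnip2 encodes the accessory subunit that transient outward channels need at the cell surface, and its brighter probe differed by 0.086 (adjusted p = 0.835 from limma). Its dimmer probe read 3.29, 3.53 and 3.19 on the control arrays and 2.76, 3.10 and 2.59 on the C3a arrays, and all C3a values were below all controls. That difference was -0.52 (standard error 0.16, unadjusted p = 0.0137 and adjusted p = 0.743 from limma). Abcc8, which encodes a regulatory subunit of the ATP-sensitive channel, gave 0.12 with the brighter and -0.34 with the dimmer probe (adjusted p = 0.753 and 0.743 from limma). The gap between the brighter and the dimmer probe was wider with C3a by 0.60 for Kcnip2 and by 0.46 for Abcc8. In both, the groups overlapped for this gap (exact permutation test, two-sided, p = 0.2). Abcc9, whose dimmer probe control replicate 1 did not measure, gave 0.0036 with the brighter and 0.16 with the dimmer probe, both above 0. Kcng2 and Nkx2-5, from the lists described below, also had both probes above 0 (0.20 and 0.15 for Kcng2, 0.15 and 0.10 for Nkx2-5), and the probe pairs drawn for Kcnj11, Abcc8 and Kcnip2 were chosen after their values were seen. Across the array, 1578 genes had at least 2 probes well above background on all 6 arrays. In 506 of them the brightest probe was above 0 and the dimmest below 0, and in 130 the reverse held. Over these genes the difference of the brightest probe exceeded that of the dimmest by a median of 0.058. The part that probe brightness plays in the values of Kcnj11, Kcnip2 and Abcc8 was not tested.

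**Figure D2:**
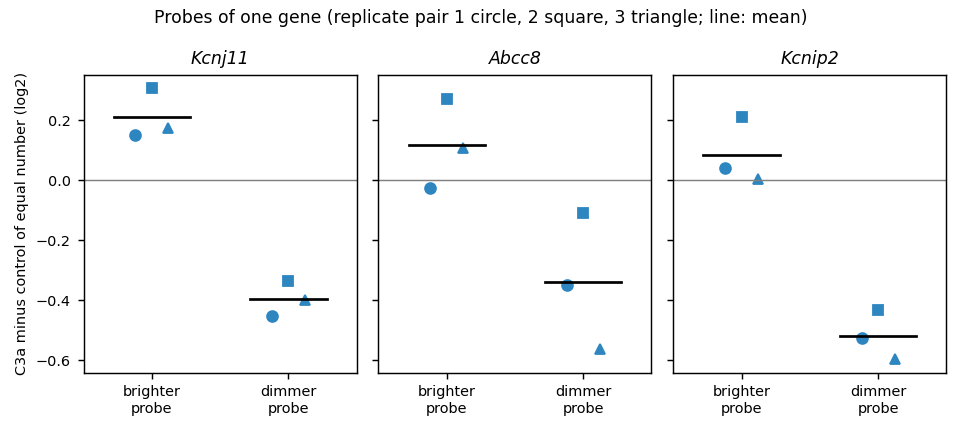
C3a minus control (log2) for each pair of arrays with the same replicate number, for the brighter and the dimmer probe of Kcnj11, Abcc8 and Kcnip2. Lines are means over the 3 pairs. All points of the 3 dimmer probes lie below 0, while the means of the brighter probes are 0.21, 0.12 and 0.086.

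For the transient outward channels, Kcnd2 was the gene with the smallest unadjusted p, at rank 414 of 23438 probes. Its brightest probe read -3.12, -3.29 and -2.97 on the control arrays and -3.55, -3.36 and -3.60 on the C3a arrays. All C3a values were below all controls, although the first control value was not well above background. The difference was -0.38 (standard error 0.12, 95% interval -0.66 to -0.092), or 1.30-fold lower, with an unadjusted p of 0.0167 and an adjusted p of 0.743 from limma. It was -0.37 without control replicate 1, and the unadjusted p from limma passed 0.05 without control replicate 3, C3a replicate 1 or C3a replicate 3 (0.0667, 0.0533 and 0.0560). With normexp, a model-based background correction, the difference was 0.017. Another 2 Kcnd2 probes were well above background on 0 arrays, so a single dim probe carries the value.

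Kcnd3, the other pore of this current, was not called. Its brightest probe read -0.60, -0.73 and -0.54 on the control arrays and -0.85, -0.71 and -0.70 on the C3a arrays. The groups overlapped at the control replicate 2 value. The difference was -0.13 (standard error 0.10, 95% interval -0.37 to 0.10, adjusted p = 0.745 from limma), which as folds is 0.773 to 1.07. A dimmer Kcnd3 probe, well above background on 2 of 3 control arrays, gave 0.075 (adjusted p = 0.939 from limma), and a further probe was well above background on 0 arrays.

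Of the delayed rectifiers, Kcnq1 encodes the pore of the slow component, and its signal was 3.59, 3.49 and 3.35 on the control arrays and 3.63, 3.65 and 3.41 on the C3a arrays. The groups overlapped widely, and within each group replicate 3 was lowest. The difference was 0.083 (standard error 0.11, 95% interval -0.19 to 0.35, adjusted p = 0.830 from limma). Kcnh2 encodes the pore of the rapid component, the channel that many drugs block. Its signal was 2.40, 2.41 and 2.38 on the control arrays and 2.37, 2.50 and 2.61 on the C3a arrays. The control arrays lay within a narrow band, and the C3a arrays lay on both sides of it. The difference was 0.099 (standard error 0.099, 95% interval -0.13 to 0.33, adjusted p = 0.775 from limma). As folds, these intervals ran from 0.878 to 1.28 for Kcnq1 and from 0.911 to 1.26 for Kcnh2. Kcna5, which encodes an ultrarapid potassium channel, was well above background on 0 of 6 arrays and was not compared. This concerns its only probe here, which cannot tell a low transcript from an absent one.

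Neither pacemaker channel was called. Hcn2 read -2.89, -3.27 and -3.63 on the control arrays and -3.73, -3.36 and -3.62 on the C3a arrays. The highest value belonged to control replicate 1, on which the probe was not well above background, and the groups overlapped. The difference was -0.31 (standard error 0.20, 95% interval -0.78 to 0.17, adjusted p = 0.743 from limma). The value became -0.12 without control replicate 1 and -0.019 with normexp. Hcn4, the leading pacemaker channel of the sinoatrial node, read -0.75, -1.59 and -1.09 on the control arrays and -0.87, -1.14 and -0.97 on the C3a arrays. The C3a values lay inside the range of the controls, and control replicate 2 was the lowest. The difference was 0.15 (standard error 0.21, 95% interval -0.34 to 0.64, adjusted p = 0.832 from limma). It was 0.35 without control replicate 1 and -0.072 without control replicate 2. The 8 nodal and conduction markers were summed as linear signal, in multiples of the array's 75th percentile. Their sum was 21.0 to 24.6 in the controls and 24.6 to 26.1 with C3a. Nearly all of it came from genes other than Isl1 and Shox2, which were well above background on 0 and 4 arrays. The brightest was Smoc2, with log2 means of 3.37 in the controls and 3.56 with C3a. Of the 6 markers with a compared probe, 5 differed above 0, and Bmp4 differed by -0.26. The part of this sum in the Hcn4 value was not tested.

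**Figure D3:**
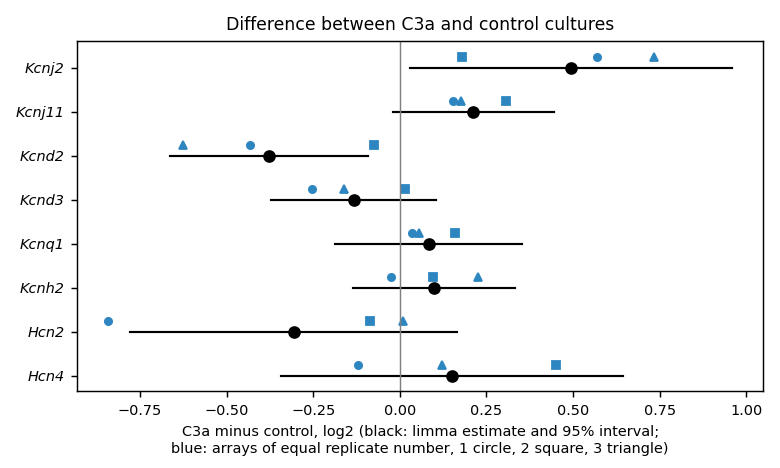
C3a minus control (log2) for the 8 genes with a compared probe. Black points and lines are the limma estimate and its 95% interval, which lies above 0 for Kcnj2, below 0 for Kcnd2 and across 0 for the other 6, and blue points are the pairs of arrays with the same replicate number.

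Partner subunits of these pores were examined as a list of 27 genes, all of them on the array. A compared probe was available for 9, of which 6 were well above background on all 6 arrays, and 10 were well above background on none. The latter included Kcnj4, Kcne3, Kcne4, Kcnip4, Dpp6, Dpp10, Kcnab2, Kcnab3 and Kcna1. Of the 9, 0 were called at an adjusted p under 0.05 and 0 at an unadjusted p under 0.05 from limma. The 9 differences ran from 0.0036 to 0.38 with a median of 0.11, and 9 of 9 were above 0, while over all 10390 genes with a compared probe the median was 0.036 and 60.6% were above 0. Of these 9, 3 were compared through the C3a arrays alone (Kcne1, Kcna6 and Hcn3), so the sign count and the median are open to that filter. They also rest on the brightest probe of each gene. The dimmer probes of Kcnip2 (-0.52, unadjusted p = 0.0137 from limma) and Abcc8 (-0.34) were below 0, and that of Abcc9 (0.16) was above. Over the 1578 genes with several measured probes, 72.8% of the brightest probes were above 0, while 51.0% of the dimmest were below. The cardiomyocyte markers had a median difference of 0.14, with 9 of 12 above 0, and their summed linear signal, as a multiple of the array's 75th percentile, was 5263 to 6821 in the controls and 6540 to 7386 with C3a. Its part in the values of the partner subunits was not tested.

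For the ATP-sensitive channel, Abcc9, the regulatory subunit typical of ventricle, differed by 0.0036 and Kcnj8, the alternative pore, by 0.063. Kcnj12, which joins Kcnj2 in inward rectifier channels, differed by 0.11. Kcna4, which carries a slow transient outward current, differed by 0.055, with an adjusted p of 0.926 from limma. Kcne1, the subunit that slows Kcnq1 channels, reached at most -2.57 on the control arrays and read -1.48, -3.10 and -2.77 on the C3a arrays. In its difference of 0.38, C3a replicate 1 stood above every control and the other C3a values did not. Hcn3 differed by 0.34, in the opposite direction to Hcn2 (unadjusted p = 0.135 from limma, and 0.0142 with the replicate block). Under that block, 13.6% of all probes were under 0.05. Values were higher in 3 of 3 pairs of equal number, as for 25.2% of all probes. The control replicate 1 value of Hcn3 (-3.40) lay under that array's floor of -2.28. Pair 1 and the block p therefore include an unmeasured control value. Kcna6, a relative of Kcna5, differed by 0.22 (unadjusted p = 0.0751 from limma). All its C3a values were above all controls, as for 8.04% of all probes. Its control replicate 1 value (-3.49) also lay under that array's floor, so the order of that value against the C3a values is not settled.

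Of 62 other potassium channel subunits, 59 were on the array, 23 had a compared probe and 30 were well above background on 0 arrays. The median difference of the 23 was 0.13, 17 of them being above 0, and 0 were called at an adjusted p under 0.05. Of the 23, 12 were compared through the C3a arrays alone, so the median and the count above 0 are open to that filter. Kcnk16, a leak channel better known from pancreas, was the one gene whose brightest probe had an unadjusted p under 0.05 from limma (0.0263). Its difference was 0.31, with a dim signal that control replicate 1 did not measure. A dimmer probe of Kcnk3, another gene of this list, was also under 0.05 (unadjusted p = 0.0305 from limma). It gave -0.71, against -0.25 for the brighter Kcnk3 probe. The brightest of the list were Kcng2, a silent subunit, Kcnj5, a pore of the muscarinic potassium channel, and Kcnma1, the calcium-activated channel of large conductance, with differences of 0.20, 0.057 and 0.42 (adjusted p from limma 0.743, 0.849 and 0.744). Of 12 voltage-gated sodium channel subunits on a separate list, 6 had a compared probe, 3 above and 3 below 0, with a median of -0.057 and 0 called, and 3 of the 6 were compared through the C3a arrays alone. Among the brightest were Scn2b, an accessory subunit, and Scn1a, a pore, with differences of 0.38 and 0.016. Among 15 regulators of cardiac excitability, 12 were on the array, 9 had a compared probe and 0 were called. Cav3, which organises caveolae, and the cardiac transcription factor Nkx2-5 differed by 0.21 and 0.15, with adjusted p from limma of 0.743 and 0.773.

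The genes whose pattern over the 6 arrays was most like that of each channel were found by the root mean square difference of log2 signals, each probe centred on its own mean, among 8555 other genes well above background on all arrays. Pgap2 and Fdxr were nearest to Kcnj11 (0.030 and 0.036), Smtnl2 and Fhod3 to Kcnq1 (0.020 and 0.027), and Vav2 and Slc25a14 to Kcnd3 (0.038 and 0.043). Med12 and Pcdh7 were nearest to Kcnh2 (0.017 and 0.029), and Stx19 and Tnni2 to Hcn4 (0.043 and 0.059). The median over all other genes was between 0.143 and 0.252. None of the 10 neighbours is a channel gene of the lists above. Those lists make up little of the 8555 genes, so this absence carries little weight. Well above background on all arrays were 5 members and 6 partner, 11 other potassium and 3 sodium channel genes.

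For several genes the direction depended on the scaling. Without normalization between arrays the median difference of all probes was -0.28 and with spike-in scaling it was -0.40, against 0.048 with the 75th percentile. Under these scalings Kcnj11, Kcnq1, Kcnh2 and Hcn4 were below 0. Each of these scalings moves all probes of an array by the same amount. The distance of a gene from that median is therefore the same under each by construction, and adds no evidence. For these genes it was 0.035 to 0.16 above. Kcnj2 itself was 0.17 without normalization and 0.045 with spike-in scaling (unadjusted p from limma 0.498 and 0.904). By the same construction it lay 0.45 above that median, while Kcnd2 was below it by 0.43, Hcn2 by 0.35 and Kcnd3 by 0.18.

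**Figure D4:**
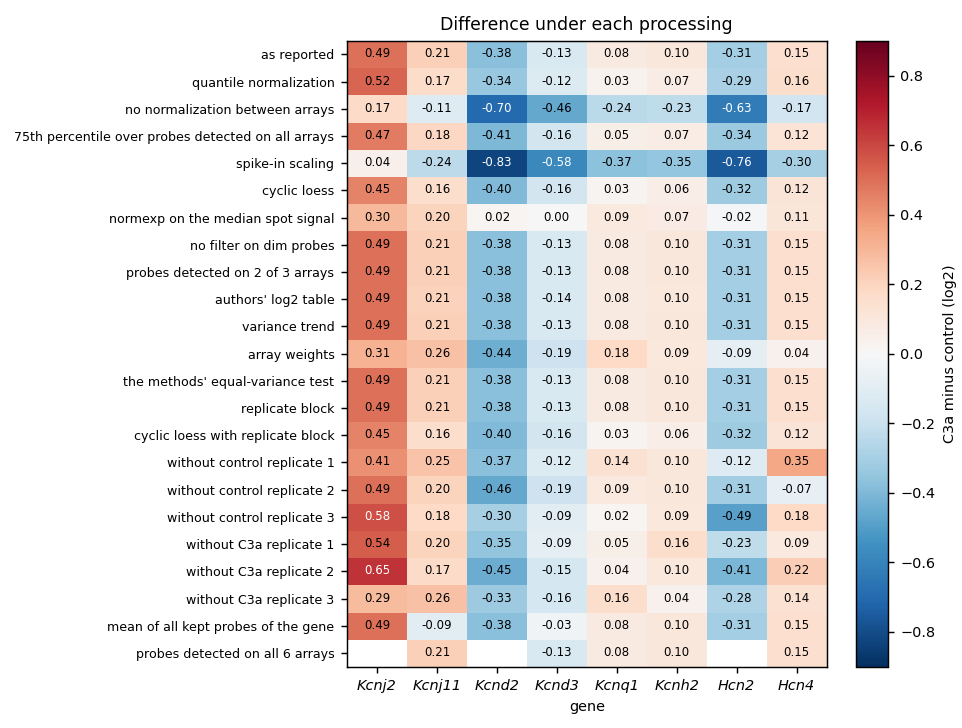
C3a minus control (log2) of the 8 genes under each processing, one row per setting and one column per gene, with the value in each cell. Kcnj2 is above 0 in every row in which it has a value, Kcnd3 and Hcn2 are below 0 likewise (Kcnd3 is -0.0025 with normexp, drawn as 0.00), and Kcnd2 is above 0 with normexp alone; blank cells are genes that the filter removed.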

How the data were processed

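The authors scanned 1-colour Agilent SurePrint G3 Rat arrays and extracted them with Feature Extraction 11.5.1.1. They deposited the background-corrected intensity of every spot, on a linear scale and not normalized between arrays, and a table of log2 values that matches the scaling used here to within 0.0062 at the median of each array. Here control spots and outlier spots were left out, spots of a probe were averaged, and log2 signals were taken relative to the 75th percentile. A probe was called well above background when a share of 0.5 or more of its spots carried that flag of Feature Extraction. The comparison took the 23438 probes that passed on all 3 control arrays, all 3 C3a arrays or both, with limma 3.58.1 in R 4.3.3 (two-sided, Benjamini-Hochberg over all compared probes). Probes were named by accession through the RefSeq table of assembly GRCr8, which matched 21109 of 45598. Permutation tests used scipy 1.17.1. The number of arrays limits the precision.

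Named are all members, the partner subunits with a compared probe, of the other lists the genes at an unadjusted p under 0.05 and up to 3 of the brightest, and the 2 genes nearest in pattern to each member; some genes that this rule names are not reported here. Members and lists were chosen with earlier results of these data known. Alternatives were other scalings, normexp on the median spot signal (offset 50), other filters, a variance trend, array weights, the deposited log2 table, the methods' test, the replicate block and each array left out. Arrays of equal replicate number deviated together from their group means (correlations 0.281, 0.32 and 0.312 over probes, against -0.255 to -0.093 for unequal numbers). Deviations within a group cancel out, so part of that contrast is built in. On these values alone, pairs of equal number are described and the replicate block is an alternative. The main limma fit had no block, and the labels do not say what a number stands for. The fit was tested on simulated data.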

Additional observations from a re-analysis of the deposited data

How the results depend on the processing

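No gene of the 8 was called at an adjusted p under 0.05 in limma or in the methods' test under any alternative that gave a test; with each gene's brightest probe the lowest adjusted p was 0.256, for Kcnj2 with the replicate block. Over all probes, 0 were higher and 0 lower in every setting except 4 lower without normalization between arrays, and 1 higher and 15 lower with spike-in scaling. The replicate block changed no call; with it the unadjusted p from limma was 0.0114 for Kcnj2 and 0.0307 for Kcnd2, while 3198 of all probes were under 0.05, against 1364 without it. Over all probes, 783 were higher at an unadjusted p under 0.05, and between 9 (spike-in scaling) and 1832 (replicate block) under the alternatives, with 370 for probes measured on all 6 arrays and 1263 without control replicate 3; 581 were lower, and between 277 (without C3a replicate 3) and 2558 (no normalization), with 356 in the methods' test. Kcnj2, Kcnd3 and Hcn2 kept their direction in every alternative that gave a value, but Kcnj2 was 0.17 without normalization and 0.045 with spike-in scaling. Without normalization between arrays the differences were -0.11 for Kcnj11, -0.24 for Kcnq1, -0.23 for Kcnh2 and -0.17 for Hcn4, and with spike-in scaling they were -0.24, -0.37, -0.35 and -0.30, where the median of all probes is below 0. The mean of all kept probes gave -0.092 for Kcnj11, normexp gave 0.017 for Kcnd2, and leaving out control replicate 2 gave -0.072 for Hcn4. The cause was not tested. Leaving out each array gave 0.29 to 0.65 for Kcnj2, 0.17 to 0.26 for Kcnj11, -0.46 to -0.30 for Kcnd2, -0.19 to -0.085 for Kcnd3, 0.020 to 0.16 for Kcnq1, 0.041 to 0.16 for Kcnh2, -0.49 to -0.12 for Hcn2 and -0.072 to 0.35 for Hcn4. At an unadjusted p under 0.05, between 0 and 1 genes were higher and between 0 and 2 lower. Kcnj2, Kcnd2 and Hcn2 have no value with the filter on all 6 arrays. Dim signal limits these 3 genes and Kcna5.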
